A study of Homo sapiens with 6 samples.

Results

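Deubiquitinases, the proteases that take ubiquitin off other proteins, were followed through RNA sequencing of 786-O cells with and without knockdown of YB1. The members were every gene whose symbol began with USP and a digit, USPL1, OTUD, OTUB, UCHL and a digit, or JOSD, together with BAP1, CYLD, ATXN3, STAMBP, BRCC3 and YOD1, and without USP18, which acts on ISG15. This rule took 99 of the 20030 listed genes. The study depleted YB1, an RNA- and DNA-binding protein encoded by YBX1, to ask how it supports renal cancer cells, and asked whether the stability of a receptor through the ubiquitin-proteasome route was involved.

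786-O is an established human line from a clear cell renal cell carcinoma that lacks functional VHL. The 3 vector libraries came from cells carrying a nonsense control hairpin, and the 3 shYB1 libraries from cells carrying a hairpin against YB1. Both groups were transduced with lentivirus, selected in puromycin and harvested 7 days later, between passages 16 and 18. The labels name 1 shYB1 group with no hairpin number, although the series' design text speaks of several, so the libraries could not be split by hairpin. No label says whether libraries of a group came from separate cultures, and p-values therefore measure only the spread between these libraries.

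Ubiquitin is attached to proteins by a relay of activating, conjugating and ligating enzymes, and chains of it mark proteins for the proteasome, for sorting, or for signaling and DNA repair complexes. Deubiquitinases trim or remove these chains, which can spare a protein from degradation, switch off a signal, or return ubiquitin to the free pool. Most are cysteine proteases of the USP, OTU, UCH and Josephin families, and the JAMM family uses zinc. BAP1, a UCH-family enzyme of chromatin, is a known tumor suppressor of clear cell renal carcinoma.

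Values are FPKM, fragments counted relative to transcript length and library size, which the authors computed. Depth is unknown from such values. FPKM of 1 library summed to between 282736 and 295887. YBX1 read 366.5, 372.8 and 377.9 FPKM in vector and 166.7, 165.9 and 173.3 FPKM in shYB1, a log2 fold change of −1.14 ± 0.031 (SE; limma adjusted p = 1.53e-08, n = 3 against 3). All 6 renal carcinoma markers that were looked up (PAX8, PAX2, VIM, KRT8, KRT18 and EPAS1) were expressed, summing to 1824 to 1914 FPKM in vector and 1887 to 1923 FPKM in shYB1. The 6 markers of other cell types summed to 0.711 to 1.05 FPKM in vector and 0.567 to 0.760 FPKM in shYB1, with CD3E and CDH5 listed at 0 in all libraries. In bulk RNA, fewer cells that express a gene and less of its RNA per cell cannot be told apart.

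Of the 99 deubiquitinase genes, 63 averaged at least 1 FPKM over the 6 libraries and were tested among 10439 genes. Another 5 were detected below that level: USP49 came closest at 0.933 FPKM, followed by OTUD7A at 0.162 FPKM, with USP6, USP26 and USP51 lower still. The other 31 were listed at 0 in every library. These were 25 copies of the near-identical USP17L family, whose reads the authors' counting may have been unable to place, and 6 further genes that included OTUD6A, USP29, USP41, USP44 and USP50. The rule also admits genes by name alone, such as USP6NL, which encodes a GTPase-activating protein and not a protease.

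The tested members spanned 1.18 to 55.7 FPKM, with a median of 5.38 FPKM. UCHL1, a neuronal-type ubiquitin hydrolase that is also expressed in many tumors, was the most abundant. It alone held 9.79 to 9.87% of the summed member FPKM in vector and 11.3 to 11.6% in shYB1. USP22, the histone-directed enzyme of the SAGA complex, USP1, OTUB1 and USP5 followed, and these 5 genes made up 31.3 to 33.0% of the sum. Members summed to 489 to 503 FPKM in vector and 538 to 547 FPKM in shYB1, so the groups did not overlap and the mean was 9.6% higher after knockdown. Divided by the median-of-ratios size factors, the sums were 505 to 506 in vector and 527 to 538 in shYB1, and the difference was 5.49%. Abundant members weigh most in such sums. Mean FPKM in vector and shYB1 was 48.7 and 62.7 for UCHL1, 22.3 and 28.4 for USP1, and 39.6 and 42.1 for USP22. For OTUB1 it was 25.1 and 25.0, and for USP5 21.8 and 21.1.

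**Figure D1:**
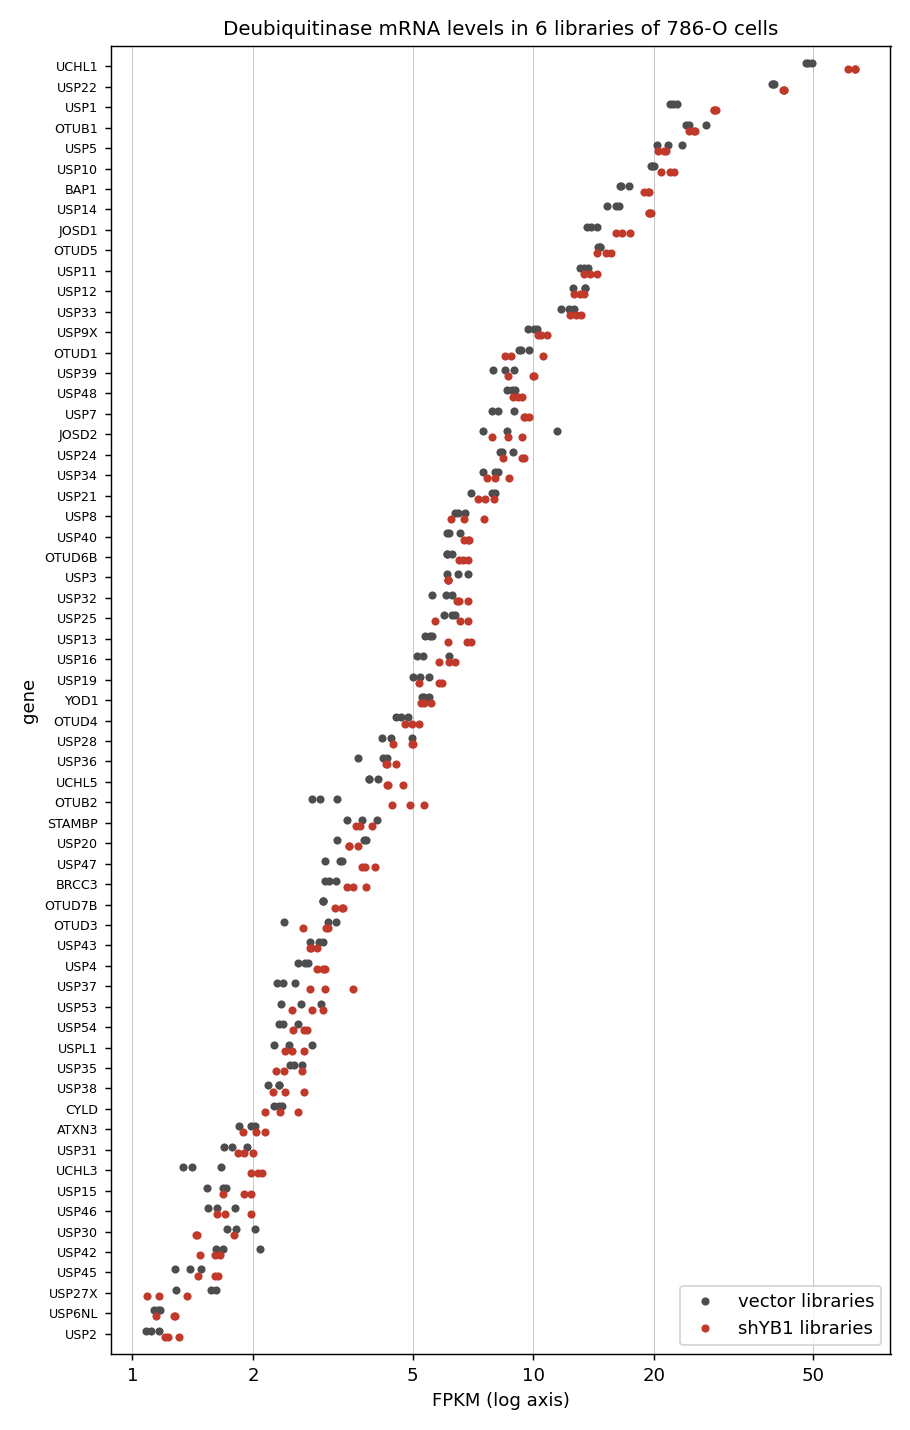
FPKM (log axis) of the 63 tested deubiquitinases in each of the 3 vector and 3 shYB1 libraries, ordered by mean. Points are single libraries. UCHL1 stands at the top at 47.9 to 63.5 FPKM, and shYB1 points lie to the right of all vector points for 22 genes and to the left for none.

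At an adjusted p under 0.05 by limma on log2(FPKM + 0.1), 12 of the 63 members (19.0%) were higher in shYB1 and 0 were lower. The background over all tested genes was 18.7% higher and 6.93% lower. The share of members that rose was therefore near that of genes at large, and the share itself is no result about deubiquitinases. At an unadjusted p under 0.05, 19 members (30.2%) were higher and 1 was lower, near the 28.2% of all genes higher and with 10.8% of them lower. Under median-of-ratios scaling 9 members were higher and 0 lower, against a background of 11.4% higher and 12.0% lower. Over all genes that scaling changed the split from 1956 higher and 723 lower to 1192 higher and 1253 lower, that is from 73.0% to 48.8% of calls being higher.

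All 3 shYB1 values lay above all 3 vector values for 22 members (34.9%), below for 0, and overlapped for 41. The background was 30.1% above and 12.5% below. The median log2 fold change of the members was 0.09, beside 0.06 for all tested genes, with 51 members (81.0%) above zero and 12 below, where 64.1% of all genes were above. Under median-of-ratios scaling these medians were 0.033 and 0.00099. The changes were small: no member reached a 2-fold change at an unadjusted p under 0.05, a limit that 23 genes (0.22%) passed in the whole table. For 59 of the 63 members the 95% confidence interval stayed within ±0.5 log2 units, the exceptions being OTUB2, UCHL3, USP37 and USP27X.

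**Figure D2:**
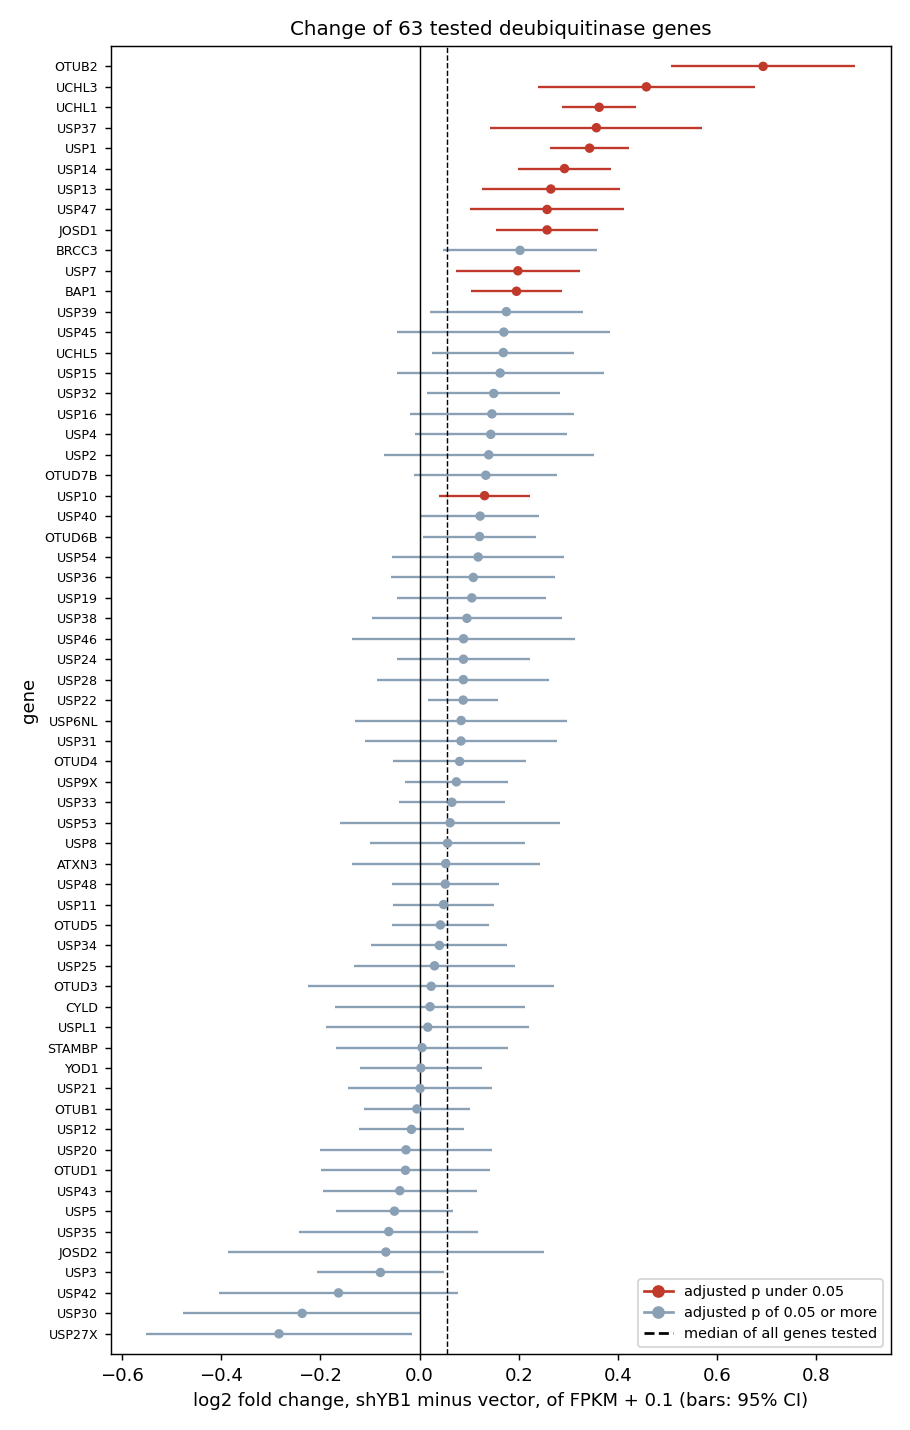
Log2 fold change (shYB1 against vector) with its 95% confidence interval from limma for the 63 tested deubiquitinases. Red marks the 12 genes at an adjusted p under 0.05 and blue the others, and the dashed line is the median of all tested genes. The red points all lie to the right of zero, from USP10 at 0.13 to OTUB2 at 0.69.

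The largest difference was in OTUB2, an ovarian tumor-family protease that has been tied to the choice of DNA double-strand break repair. It read 2.94, 2.81 and 3.24 FPKM in vector and 4.45, 4.94 and 5.34 FPKM in shYB1. All shYB1 libraries exceeded all vector libraries. The log2 fold change was 0.69 ± 0.084 (SE; limma adjusted p = 0.000315), and it passed the threshold in all 14 alternatives that tested it. In GENCODE 29 on GRCh38 the gene runs from 94026329 to 94048930 on the plus strand of chromosome 14, where 15.1% of its exonic bases overlap DDX24 on the opposite strand. Whether reads were counted by strand is not given in the sources used here, and the part of overlapping reads in the OTUB2 values was not tested. DDX24 read 21.98, 22.08 and 21.42 FPKM in vector and 21.0, 22.4 and 21.8 FPKM in shYB1, with overlapping groups (limma adjusted p = 0.94). OTUB1, the close relative that also blocks ubiquitin-conjugating enzymes without cutting, read 24.4, 24.0 and 26.9 FPKM in vector and 25.4, 25.2 and 24.5 FPKM in shYB1. Its groups overlapped, and the log2 fold change was −0.0054 (95% interval −0.11 to 0.10).

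Within the UCH family of ubiquitin C-terminal hydrolases, 3 of the 4 members rose, a count too small to read against the 18.7% of all genes (11.4% under median-of-ratios scaling, where it was also 3). UCHL1 read 47.9, 48.6 and 49.6 FPKM in vector against 63.5, 63.4 and 61.0 FPKM in shYB1, a log2 fold change of 0.36 ± 0.034 (SE; limma adjusted p = 6.84e-05). It had the smallest p among the members and passed in all 15 alternatives. UCHL3, which processes ubiquitin and NEDD8 precursors, read 1.34, 1.67 and 1.41 FPKM in vector and 1.98, 2.06 and 2.10 FPKM in shYB1. Its log2 fold change was 0.46 ± 0.099 (SE; limma adjusted p = 0.00773), again with no overlap. Of its exonic bases 37.2% overlap other annotated genes, mainly AL137782.1 on the same strand, and 27.3% of its 50-base words occur elsewhere among the transcripts, so the reads given to UCHL3 are uncertain. BAP1, encoded on chromosome 3 at 52401013 to 52410350 (minus strand), read 16.6, 16.4 and 17.4 FPKM in vector and 19.3, 18.9 and 19.5 FPKM in shYB1, a log2 fold change of 0.20 ± 0.041 (SE; limma adjusted p = 0.00703). The fourth, UCHL5, is bound to the proteasome and read 3.90, 4.10 and 3.88 FPKM in vector and 4.74, 4.35 and 4.32 FPKM in shYB1. Its groups did not overlap, but it missed the threshold (log2 fold change 0.17, limma adjusted p = 0.0795).

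Of 14 tested members grouped under DNA repair, replication and p53, 6 rose (42.9%, beside 18.7% of all genes): OTUB2, USP37, USP1, USP47, USP7 and USP10. Under median-of-ratios scaling the count was 3 of 14, beside 11.4% of all genes. In the deposited annotation, 0 of 5 tested members under DNA repair rose with either scaling. Of 5 under cellular response to DNA damage stimulus, 2 rose (USP10 and USP47), and 0 under median-of-ratios scaling. The groups by role were assigned by hand from general knowledge, 1 role to a gene, with earlier results of these data known. Their shares are therefore no independent support for a link to a role. OTUD6B, known rather from the control of protein synthesis, stands in the repair group. USP1 deubiquitinates FANCD2 and PCNA after DNA damage. It read 22.3, 22.8 and 21.9 FPKM in vector and 28.3, 28.3 and 28.5 FPKM in shYB1, a log2 fold change of 0.34 ± 0.036 (SE; limma adjusted p = 0.000138). The gap between the groups was far wider than the spread within either, with SDs of 0.423 and 0.140 FPKM. WDR48, the subunit that activates USP1 as well as USP12 and USP46, stood at 5.21, 4.78 and 4.92 FPKM in vector and 4.70, 4.60 and 4.47 FPKM in shYB1. These values lay in the opposite order to those of USP1, without overlap, but WDR48 did not pass (log2 fold change −0.11, limma adjusted p = 0.196). The other enzymes of this subunit did not pass either: log2 fold changes were −0.016 for USP12 and 0.089 for USP46, and leaving out single libraries turned the sign of USP12.

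The remaining genes of the repair group that rose did so by less or with wider spread. USP37, which stabilizes cyclin A, read 2.29, 2.54 and 2.37 FPKM in vector and 3.56, 3.02 and 2.77 FPKM in shYB1 (log2 fold change 0.36 ± 0.096 SE, limma adjusted p = 0.0216). The first shYB1 library was the highest. USP37 shares 32.8% of its exonic bases with VIL1 on the other strand, which averaged 0.0717 FPKM in vector and 0.0507 FPKM in shYB1. USP47, linked to base excision repair, read 3.02, 3.34 and 3.30 FPKM in vector and 3.75, 3.81 and 4.04 FPKM in shYB1 (log2 fold change 0.26, limma adjusted p = 0.0226; 0.0529 under median-of-ratios scaling).

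USP7, also called HAUSP, deubiquitinates MDM2 and p53. It read 7.91, 8.16 and 8.97 FPKM in vector and 9.48, 9.51 and 9.74 FPKM in shYB1. The log2 fold change of 0.20 passed by limma (adjusted p = 0.0272) but lost the call under median-of-ratios scaling (adjusted p = 0.0742). USP10, which acts on p53 in the cytoplasm and binds the stress granule protein G3BP1, read 19.78, 19.98 and 19.67 FPKM in vector and 20.8, 22.4 and 21.9 FPKM in shYB1. Its log2 fold change was the smallest among the called genes, 0.13 with a limma adjusted p of 0.0406, and 0.076 with 0.201 under median-of-ratios scaling. Both calls were therefore the least stable: USP10 lost its call in 10 of 15 alternatives and USP7 in 8 of 15.

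Of the 6 tested members grouped by hand under ubiquitin recycling and proteasome, 4 rose: UCHL1, UCHL3, USP14 and USP13. The count was also 4 under median-of-ratios scaling, with 18.7% of all genes called higher in the first fit and 11.4% in the second. The place of USP13 in this group is uncertain. Its terms in the deposited annotation include protein stabilization and K63-linked deubiquitination. USP14 trims chains on substrates docked at the proteasome. It read 16.4, 16.1 and 15.3 FPKM in vector and 19.4, 19.5 and 19.7 FPKM in shYB1, a log2 fold change of 0.29 ± 0.042 (SE; limma adjusted p = 0.000934). USP13, a relative of the free-chain protease USP5, read 5.37, 5.60 and 5.54 FPKM in vector and 6.98, 6.82 and 6.13 FPKM in shYB1, a log2 fold change of 0.26 ± 0.063 (SE; limma adjusted p = 0.012). Neither gene overlapped between groups. USP5 itself overlapped, with 21.7, 20.4 and 23.5 FPKM in vector and 21.3, 20.5 and 21.4 FPKM in shYB1, and its interval ran from −0.17 to 0.07 log2 units.

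These 2 roles together held 10 of the 12 calls among 20 tested genes, and the remaining 43 tested members held 2, with 18.7% of all genes called higher. Under median-of-ratios scaling they held 7 and 2, with 11.4% of all genes called higher. These 2 roles were the ones with the highest shares of calls, so pooling them set the direction of that split in advance. It is therefore no result about the roles. The roles were set with earlier results of these data known and no test was made of that split. The remaining calls were BAP1 among 7 histone-directed members and JOSD1 among 7 in endoplasmic reticulum, VCP and mitochondrial quality control. JOSD1, a Josephin-domain protease, stands there beside its relatives ATXN3 and JOSD2, although it is known from the plasma membrane. It read 13.9, 14.4 and 13.6 FPKM in vector and 16.7, 17.5 and 16.1 FPKM in shYB1, a log2 fold change of 0.26 ± 0.047 (SE; limma adjusted p = 0.00325). Its relative JOSD2 overlapped widely, at 7.49 to 11.4 FPKM in vector and 7.90 to 9.40 FPKM in shYB1.

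**Figure D3:**
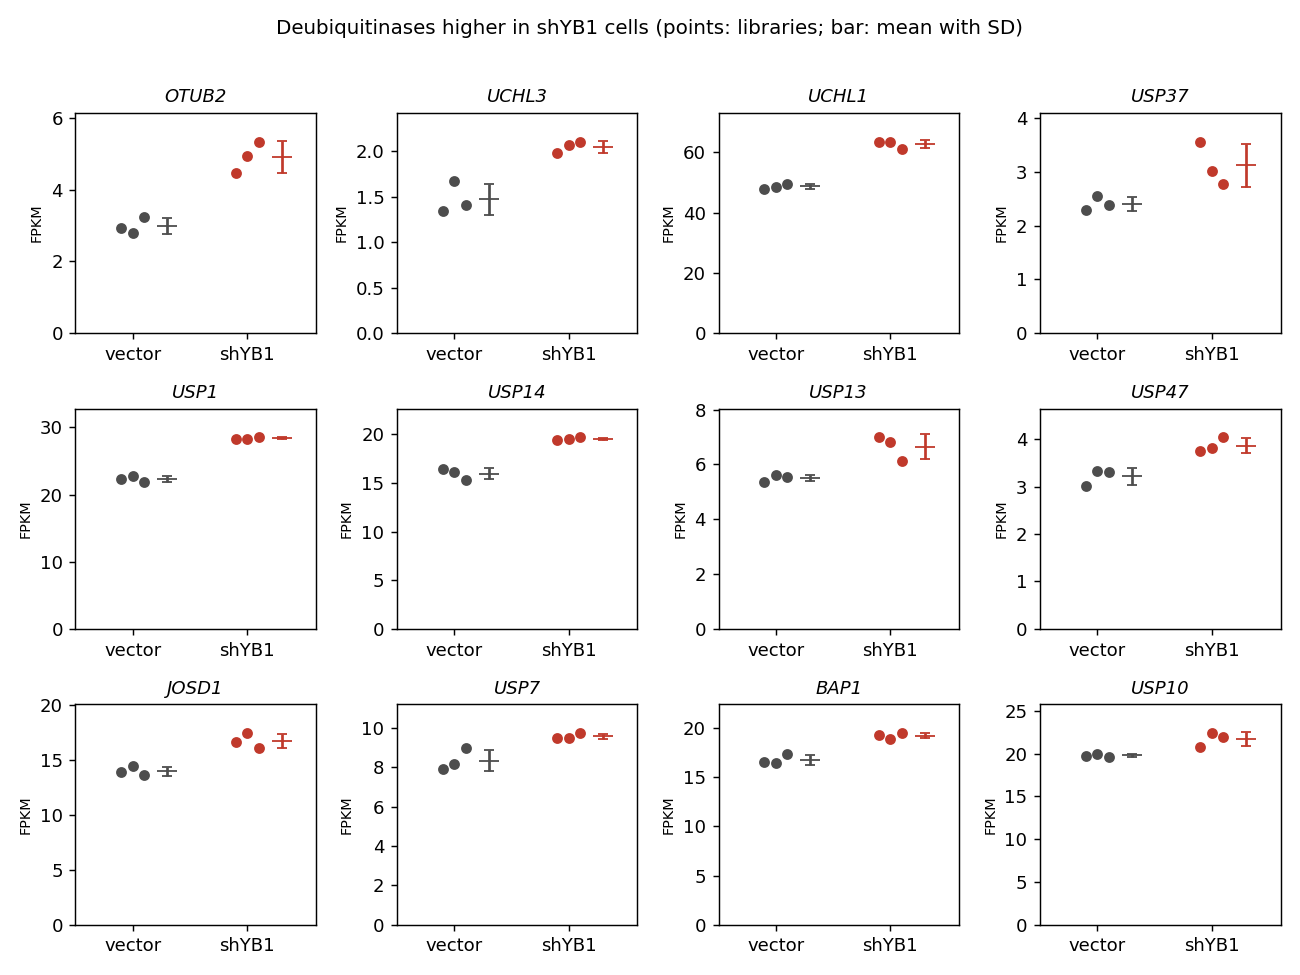
FPKM of the 12 deubiquitinases higher in shYB1, one panel a gene with its own axis from 0; points are single libraries, and the dash with whiskers beside them is the mean with its SD. In each panel the 3 shYB1 points lie above the 3 vector points, with the widest gap relative to the gene's own level in OTUB2 (means 2.995 and 4.91 FPKM) and the widest in FPKM in UCHL1 (48.71 and 62.66 FPKM).

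No call was made among 8 members of NF-kB and innate immune signaling, 7 of TGF-beta, Wnt and growth signaling, or 7 of receptor endocytosis and trafficking. Nor was any made among the 2 WDR48-bound members named above or among USP39, USP53, USP54, USP6NL and USPL1. These 5 were grouped by hand as lacking ubiquitin protease activity or acting on SUMO, and their activity was not tested. Over all tested genes 18.7% were called higher and 6.93% lower, and groups this small cannot be read against those shares. CYLD, the tumor suppressor that removes K63-linked and linear chains from NF-kB regulators, read 2.26, 2.36 and 2.32 FPKM in vector and 2.34, 2.59 and 2.14 FPKM in shYB1. The shYB1 values surrounded those of vector, with a log2 fold change of 0.021 (95% interval −0.17 to 0.21) that turned to −0.032 under median-of-ratios scaling. USP8, which acts on endocytosed receptors, read 6.75, 6.40 and 6.49 FPKM in vector and 7.54, 6.73 and 6.22 FPKM in shYB1, overlapping with an interval from −0.10 to 0.21. STAMBP, the zinc-dependent endosomal enzyme also called AMSH, had a log2 fold change of 0.005 (−0.17 to 0.18).

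Beyond the 12 called genes, 10 members had groups that did not overlap. With the called genes these made 22 members (34.9%), near the 30.1% of all tested genes with shYB1 above vector. The count is therefore no result about deubiquitinases. USP22 read 39.4, 39.6 and 39.9 FPKM in vector and 42.2, 42.2 and 42.0 FPKM in shYB1, tight in both groups but only 0.088 apart on the log2 scale (limma adjusted p = 0.0656). BRCC3, the K63-directed enzyme of the BRCA1-A and BRISC complexes, read 3.02, 3.22 and 3.09 FPKM in vector and 3.82, 3.42 and 3.55 FPKM in shYB1 (log2 fold change 0.20, limma adjusted p = 0.0577). The others were UCHL5, USP2, USP4, USP9X, USP32, USP40, OTUD6B and OTUD7B. The lowest log2 fold changes belonged to USP27X, an X-linked relative of USP22, and USP30, which opposes mitophagy at mitochondria. USP27X read 1.57, 1.62 and 1.29 FPKM in vector and 1.09, 1.17 and 1.37 FPKM in shYB1 (log2 fold change −0.28, limma adjusted p = 0.11). USP30 read 2.02, 1.72 and 1.81 FPKM in vector and 1.45, 1.44 and 1.79 FPKM in shYB1 (−0.24, limma adjusted p = 0.134). Both overlapped between the groups. The smallest difference of any tested member was in USP21, which acts on histone H2A, with 8.03, 6.98 and 7.88 FPKM in vector and 7.575, 7.999 and 7.301 FPKM in shYB1 and an interval from −0.14 to 0.15 log2 units.

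The number of calls moved with the level of the genes, among members as among all genes. Of 21 tested members under 3 FPKM 2 were called, with a median SE of 0.095, where 9.84% of all genes at that level were higher. Among 28 members between 3 and 10 FPKM there were 4 (median SE 0.067; all genes 16.3%), and among 14 at 10 FPKM or more there were 6 (median SE 0.045; all genes 26.1%). Weakly expressed members were thus measured with a larger error in log2 units, and 13 members without a call had a log2 fold change of larger size than the smallest one called.

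Ratios between close relatives within a library remove any scaling shared by both genes. Of 8 pairs, OTUB2 to OTUB1 was higher in every shYB1 library, at 0.121, 0.117 and 0.120 in vector and 0.176, 0.196 and 0.218 in shYB1. The mean rose from 0.119 ± 0.0021 to 0.197 ± 0.0213 (SD, n = 3 each) and the ratio of the means was 1.65. USP11 to USP4 was lower in every shYB1 library, at 4.99, 4.97 and 5.06 in vector and 4.63, 4.63 and 4.76 in shYB1. The other 6 pairs overlapped. An exact two-sided permutation test cannot go below p = 0.1 with 3 libraries against 3, and both pairs gave that value (0.32 after Benjamini-Hochberg adjustment over the 8 pairs).

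**Figure D4:**
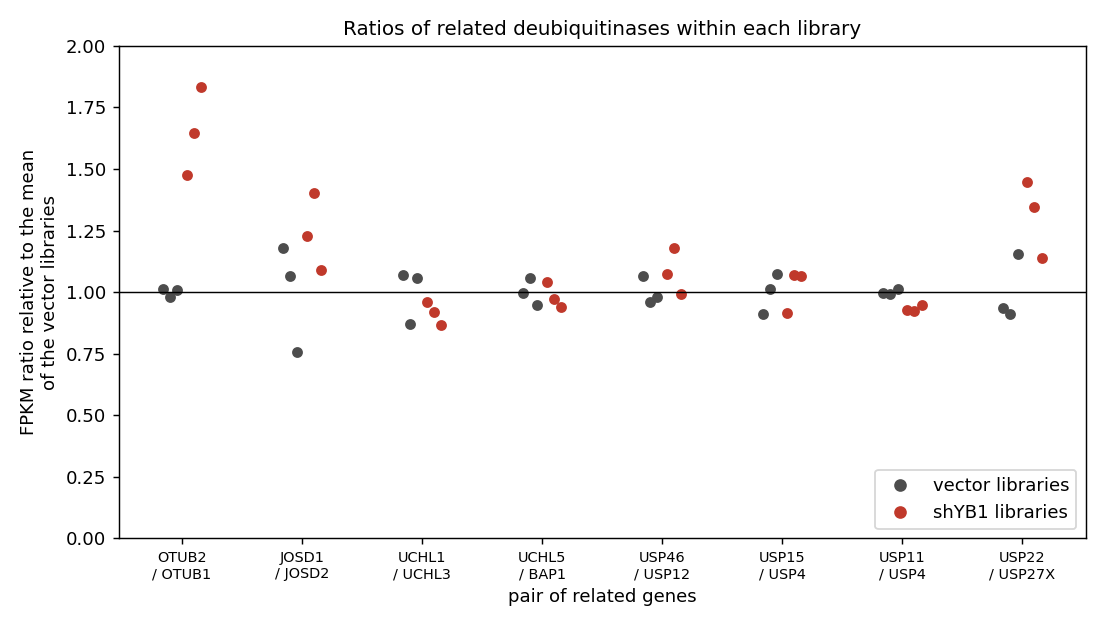
Ratio of FPKM between close relatives in each library for 8 pairs, divided by the mean ratio of the vector libraries (linear axis from 0, line at 1). Points are single libraries, and those of OTUB2 to OTUB1 average 1.65 in shYB1, while 6 pairs overlap.

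The neighboring machinery was read from lists of genes. Of 33 tested partners of deubiquitinases, 7 were higher (21.2%, near the 18.7% of all genes) and 0 lower, with a median log2 fold change of 0.05 that turned to −0.0054 under median-of-ratios scaling. The 7 were WDR5, ATXN7L3, SHMT2, FOXK2, UFD1, GMPS and ADRM1. FOXK2, which recruits BAP1 to chromatin, read 10.4, 10.7 and 10.5 FPKM in vector and 12.5, 12.3 and 11.9 FPKM in shYB1 (log2 fold change 0.21, limma adjusted p = 0.007). SHMT2, part of the BRISC complex with BRCC3, had a log2 fold change of 0.17 (limma adjusted p = 0.0046). Under median-of-ratios scaling these 2 were still called, and VCP and G3BP1 were called lower.

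Of 14 tested deubiquitinases outside the naming rule, 3 were higher (21.4%: PSMD14, COPS5 and OTULIN) and 1 was lower (7.14%). These shares were near the 18.7% higher and 6.93% lower of all genes. Under median-of-ratios scaling 2 were higher and 2 lower, beside 11.4% and 12.0% of all genes. There COPS5 lost its call (limma adjusted p = 0.0969) and MYSM1 was called lower (limma adjusted p = 0.0434). The gene called lower without that scaling was TNFAIP3, also called A20, which restrains NF-kB. It read 8.86, 8.94 and 7.99 FPKM in vector and 5.54, 6.48 and 5.19 FPKM in shYB1, a log2 fold change of −0.58 ± 0.082 (SE; limma adjusted p = 0.000951). Among the members of the naming rule the lowest log2 fold change was the −0.28 of USP27X. PSMD14, the zinc-dependent deubiquitinase of the proteasome lid, read 31.67, 29.03 and 30.01 FPKM in vector and 35.09, 35.03 and 36.20 FPKM in shYB1 (log2 fold change 0.23, limma adjusted p = 0.00305). OTULIN, which cuts linear chains, had a log2 fold change of 0.23 (limma adjusted p = 0.0106).

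Among 46 tested proteasome subunits 21 were higher (45.7%) and 0 lower, with a median log2 fold change of 0.17, beside the background of 18.7% higher. Under median-of-ratios scaling 15 were higher, beside 11.4%. The subunits summed to 1818 to 1944 FPKM in vector. Of all genes at 10 FPKM or more, 26.1% were higher, and no comparison with genes of like level was made. Of 31 ubiquitin-conjugating enzymes 9 were higher and 1 lower, with a median of 0.10, beside 18.7% and 6.93% of all genes. Under median-of-ratios scaling 6 were higher and 2 lower, with a median of 0.046, beside 11.4% and 12.0% of all genes. Whether these enzymes differed from genes at large was not tested. Of 8 SUMO proteases 3 were higher, SENP1, SENP3 and DESI2, and 0 lower. These counts were the same under median-of-ratios scaling, but a list of 8 is too small to read against the shares of all genes.

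**Figure D5:**
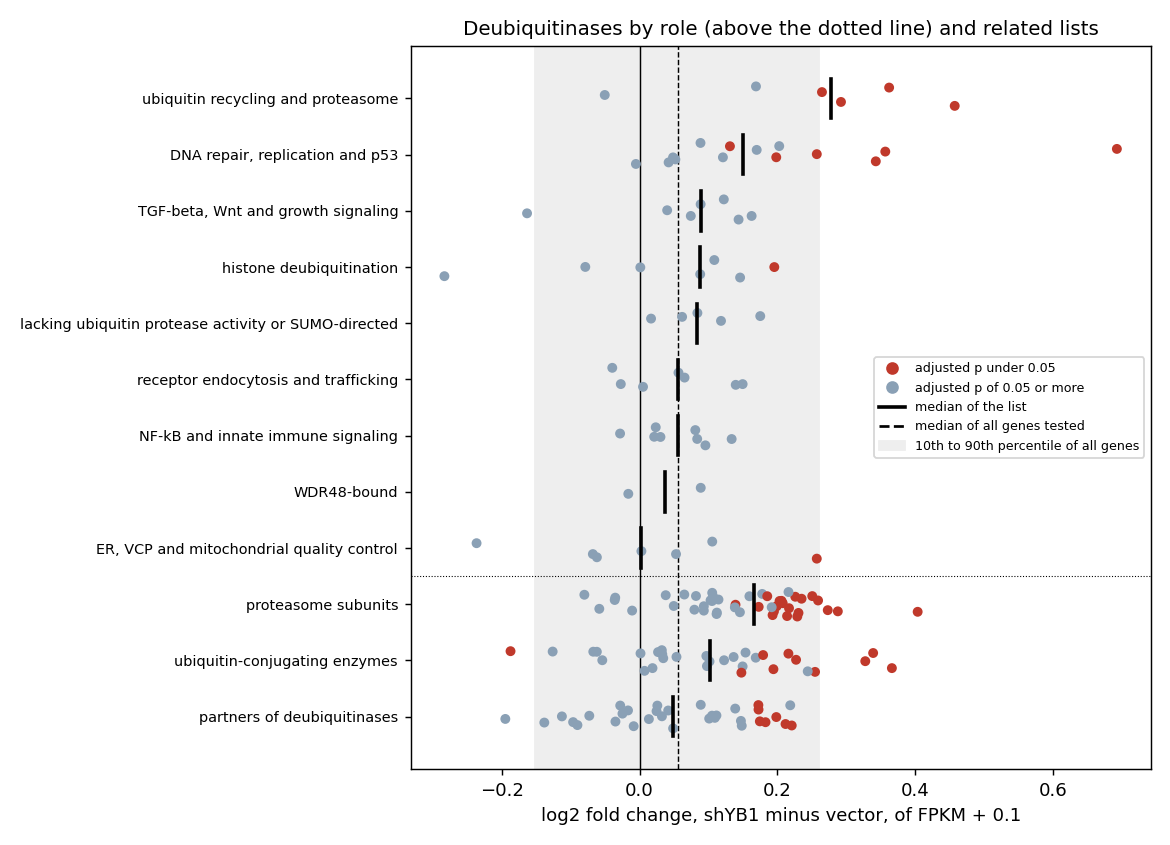
Log2 fold change (shYB1 against vector) of each tested deubiquitinase by role and, below the dotted line, of proteasome subunits, ubiquitin-conjugating enzymes and partners. Points are genes, red where the adjusted p was under 0.05, short bars are list medians, the dashed line is the median of all tested genes and the grey band their 10th to 90th percentile. The medians by role run from 0.28 for ubiquitin recycling and proteasome to 0.0026 for quality control, which turned to −0.052 under median-of-ratios scaling, as that of the WDR48-bound members turned to −0.017.

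In the annotation deposited with the values, of 13 tested members annotated to K48-linked chains 2 rose (OTUB2 and USP37), of 6 to K11-linked chains the same 2, and of 11 to K63-linked chains 2 (OTUB2 and USP13), so OTUB2 was counted under each chain type. Of members annotated to the nucleus 6 of 24 rose (25.0%) and to the cytosol 5 of 29 (17.2%), on either side of the 18.7% of all genes. Genes can carry several of these terms, and 93 of the 99 members carried any.

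YB1 owes its name to binding of the Y-box, a DNA element with the core CCAAT, and the promoters of the genes that rose are shown for that reason. The letters CCAAT, or ATTGG for the other strand, were searched in the 300 bases from 250 before to 50 after each start site in RefSeq (GRCh38.p14). Of the 12 called genes 10 were matched, and 6 of these (60.0%) held the letters in at least 1 promoter, as did 18 of 51 tested members matched (35.3%) and 39.7% of all 27305 genes. Per promoter it was 40.0% of 15, 28.2% of 71 and 34.6% of 35116. BAP1 and USP37 were not matched. A match is a description of the letters, not a site of binding. The 250 bases before the start are printed 5′ to 3′ with the letters in capitals, for OTUB2 (plus strand, chr14:94026090-94026339), USP1 (plus strand, chr1:62436145-62436394) and USP13 (plus strand, chr3:179652790-179653039), which hold them, and for UCHL1 (plus strand, chr4:41256678-41256927), which does not.
OTUB2: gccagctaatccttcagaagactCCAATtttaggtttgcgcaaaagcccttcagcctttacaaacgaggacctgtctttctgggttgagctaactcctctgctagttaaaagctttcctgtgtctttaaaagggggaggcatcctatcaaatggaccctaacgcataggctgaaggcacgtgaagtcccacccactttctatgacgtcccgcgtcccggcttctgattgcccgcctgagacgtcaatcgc
USP1: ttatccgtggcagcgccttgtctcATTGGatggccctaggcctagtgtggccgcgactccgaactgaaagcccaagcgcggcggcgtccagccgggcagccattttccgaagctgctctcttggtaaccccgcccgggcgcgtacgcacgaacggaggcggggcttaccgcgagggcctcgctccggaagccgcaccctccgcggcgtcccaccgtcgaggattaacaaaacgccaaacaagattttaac
USP13: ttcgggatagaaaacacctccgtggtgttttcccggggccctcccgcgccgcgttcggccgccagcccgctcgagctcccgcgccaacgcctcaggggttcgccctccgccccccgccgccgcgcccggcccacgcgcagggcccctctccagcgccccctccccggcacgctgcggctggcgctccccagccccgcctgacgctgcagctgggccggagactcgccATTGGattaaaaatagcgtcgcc
UCHL1: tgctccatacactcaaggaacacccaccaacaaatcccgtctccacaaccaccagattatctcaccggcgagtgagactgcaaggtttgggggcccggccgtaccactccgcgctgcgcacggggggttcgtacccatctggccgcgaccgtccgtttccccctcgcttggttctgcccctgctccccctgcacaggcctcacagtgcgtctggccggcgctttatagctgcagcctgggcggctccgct
The letters start 227 bases before the OTUB2 start, 226 before that of USP1 and 23 before that of USP13. The printed USP1 promoter has 2 matches in the 300 bases searched, only 1 of which lies within the printed bases. Another promoter of USP1 (plus strand, chr1:62436799-62437048) holds none. UCHL3 and USP7 likewise hold the letters in 1 promoter and not in every one. The member with the largest log2 fold change, OTUB2, thus held the letters, and the most abundant, UCHL1, did not.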

How the data were processed

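RNA of 786-O cells was sequenced in 3 vector and 3 shYB1 libraries. The authors deposited FPKM values per gene with gene annotation for 20030 genes, and the submitters' processing notes name Trimmomatic, HISAT2, Cufflinks, HTSeq, DESeq and GRCh38, with no role or version given in the sources used here. FPKM hold no read depth, so no counting interval could be set.

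Values were analyzed as log2(FPKM + 0.1) for the 10439 genes whose average across all libraries reached 1 FPKM, with limma 3.58.1 (moderated, trend, R 4.3.3) and Benjamini-Hochberg adjustment over all 10439, called at an adjusted p under 0.05. Fold changes on this scale understate changes of low genes. Pairwise ratios used exact permutation tests (SciPy 1.17.1). The fit was tested on simulated data with 200 of 10439 genes changed, as many up as down. It recovered 96 of 100 genes changed 2-fold and 81 of 100 changed by 0.5 log2 units, with 5 false calls. No smaller change and no shift of scale was simulated. Recovery of changes under 0.5 log2 units, the size in most called members, was therefore not tested. Alternatives were median-of-ratios and quantile scaling, rescaling to TPM, other pseudocounts and filters, no variance trend, the replicate number as a block, and leaving out each library.

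The members and all lists were chosen with earlier results of these data known. Genes were named where they were called members, the 5 most abundant members, the tested member with the smallest log2 fold change, listed paralogs (with BAP1 and CYLD), YBX1, or called genes of the partner and other deubiquitinase lists. USP8, STAMBP, BRCC3, USP30 and the members listed with non-overlapping groups were added after their values were seen. So were WDR48, VCP, G3BP1, MYSM1, DDX24, VIL1 and the SUMO proteases. Positions and exon overlaps came from GENCODE 29 and promoters from RefSeq. A planned list of other genes is not reported here.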

Additional observations from a re-analysis of the deposited data

How the results depend on the processing

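The direction of all 12 called members was kept in every alternative run. OTUB2, UCHL1, UCHL3, USP1, USP13, USP14, JOSD1 and BAP1 stayed past the threshold in each one that tested them, with limma adjusted p of at most 0.0486, whereas USP37 lost it in 3 of 14, USP47 in 5 of 14, USP7 in 8 of 15 and USP10 in 10 of 15. The count of members higher was 9 with median-of-ratios, quantile scaling or no filter, 8 at a minimum of 5 FPKM, 11 with TPM, and 8 to 12 without single libraries; members lower went from 0 to 1 without vector replicate 3, when USP27X passed (log2 fold change −0.38, limma adjusted p = 0.0495).

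The replicate numbers did not pair the libraries: deviations of same-numbered libraries correlated at −0.169 to −0.00824. With the replicate block, 12 members were higher and 0 lower.

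Median-of-ratios gave 1253 lower and 1192 higher of all genes and a member median of 0.033, and quantile scaling 1184, 1267 and 0.030; without single libraries that median ran from 0.073 to 0.12, the highest without shYB1 replicate 3. Partners lower numbered 1 at a minimum of 5 FPKM or with TPM, 2 with median-of-ratios and 3 with quantile scaling; partners higher numbered 2 under either scaling, 4 with no filter and 3 to 5 without single libraries. Other deubiquitinases lower numbered 2 under either scaling and 1 to 2 without single libraries (2 without shYB1 replicate 3). Ubiquitin-conjugating enzymes lower numbered 2 with median-of-ratios and 0 to 1 without single libraries (0 without shYB1 replicate 2 or vector replicate 1), and 1 proteasome subunit was lower with quantile scaling. Signs turned for uncalled genes near zero. USP21 went from 0.0011 to −0.053 (median-of-ratios), −0.055 (quantile) and −0.0031 (TPM), USP11 to −0.0063 and −0.011 under either scaling, and CYLD to −0.032 and −0.041. Without single libraries OTUB1 ran from −0.037 to 0.045, USP5 from −0.10 to 0.0034, USP12 from −0.050 to 0.0055, JOSD2 from −0.20 to 0.10, CYLD from −0.046 to 0.085 and USP21 from −0.061 to 0.039. The cause of these changes was not tested. FPKM without depth limits what can be said of members under 3 FPKM.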
